A study of Mus musculus with 6 samples.

Results

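Eosinophils exposed to IL-4 for 1 h were compared with untreated eosinophils of the same time. Their source was low-density marrow of BALB/c animals, wild-type and aged 4 to 8 weeks. Until day 4 the medium held SCF (stem cell factor) and the ligand of FLT3, 100 ng/ml of each, and IL-5 followed at 10 ng/ml until day 14. Both groups thus share the IL-5 culture, and the treated cells differ by 10 ng/ml IL-4 for 1 h. The series holds 6 libraries, 1 for each of IL-4, IL-33 and no cytokine at 1 h and at 4 h, and the labels do not say how many mice gave the marrow. As every group is a single library, sizes of change are given without a replicate check and without a p-value. Genes were included where they reached 1 FPKM (sequenced fragments per length of transcript and depth of library) in either library, after the transcripts of each gene had been summed. This gave 10494 of the 22548 genes in the deposited tables, and 134 small RNA genes that passed the same filter were kept apart. Of the 10494 genes, 10202 reached 1 FPKM in both libraries, 135 with IL-4 only and 157 in untreated cells only. Next to this limit, Smyd3 was inside it at 0.982 FPKM with IL-4 and 1.000 FPKM untreated, and Efcab2 was outside it at 0.9999 FPKM with IL-4 and 0.833 FPKM untreated.

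IL-4 binds a receptor made of the IL-4 receptor alpha chain (Il4ra) and the common gamma chain (Il2rg), or, with Il13ra1 in place of the gamma chain, a receptor shared with IL-13. JAK kinases bound to the receptor then phosphorylate the transcription factor STAT6, which enters the nucleus and binds paired TTC and GAA half-sites. SOCS proteins are made in response to cytokines and damp JAK signalling in return. Eosinophils are granulocytes of allergic inflammation and of the defence against worms, and they both make and respond to IL-4.

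Promoter sequences are shown because the genes with the largest changes include direct feedback genes of the JAK-STAT pathway. RefSeq promoters of the GRCm38.p6 build were searched in the 250 bases before each transcription start for TTCNNNNGAA and for TTCNNNGAA. Each pattern reads the same on both strands, and the patterns differ by 1 base in the spacer. The windows of Socs1 (chr16:10785537-10785786, minus strand) and Cish (chr9:107296409-107296658, plus strand), the SOCS family genes with the largest changes, held neither pattern. Matches, in capitals, were found in windows of Pde4b (chr4:102569885-102569943, plus strand) and Clec7a (chr6:129472876-129472935, minus strand), which were less than 2-fold higher with IL-4.
Socs1: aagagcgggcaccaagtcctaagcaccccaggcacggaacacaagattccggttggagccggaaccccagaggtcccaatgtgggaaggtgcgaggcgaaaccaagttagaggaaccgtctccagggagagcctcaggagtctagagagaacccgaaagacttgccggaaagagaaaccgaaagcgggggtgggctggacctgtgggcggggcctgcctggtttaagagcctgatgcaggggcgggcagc
Cish: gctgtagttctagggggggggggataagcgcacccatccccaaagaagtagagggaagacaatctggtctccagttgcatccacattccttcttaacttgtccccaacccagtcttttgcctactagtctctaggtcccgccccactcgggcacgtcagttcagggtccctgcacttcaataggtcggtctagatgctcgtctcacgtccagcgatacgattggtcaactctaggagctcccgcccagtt
Pde4b: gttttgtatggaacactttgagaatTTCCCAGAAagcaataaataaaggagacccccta
Clec7a: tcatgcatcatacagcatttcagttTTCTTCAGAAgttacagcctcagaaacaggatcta

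The match of Pde4b starts 150 bases before one of its RefSeq starts, and that of Clec7a 131 and 125 bases before 2 of its RefSeq starts. TTCNNNNGAA was present in 5.85% and TTCNNNGAA in 7.02% of all 32851 RefSeq promoters searched. Of the 53 well expressed genes that were at least 1.2-fold higher with IL-4, described below, 40 had a promoter in the table, and 1 of these 40 held each pattern. A match in these letters is a description and was not tested as a binding site.

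Nearly all genes had almost the same level in both libraries. Total FPKM over all transcripts was 724175 with IL-4 and 739248 in untreated cells, and 10445 genes with IL-4 and 10458 genes in untreated cells reached 1 FPKM. The median log2 change over all 10494 genes was -0.02, where change means log2 of (IL-4 FPKM + 1) over (untreated FPKM + 1), a scale that understates changes of low genes. Among the 5655 well expressed genes, those with a mean of at least 10 FPKM, 90% lay between -0.16 and 0.11, and the 1st and 99th percentiles were -0.25 and 0.25. The spread narrowed with level: in the lowest of 10 bins of mean FPKM the 1st and 99th percentiles were -0.54 and 0.57, and in the highest bin -0.20 and 0.15. A shift of 1.2-fold, or 0.26 on this scale, thus lay outside the central 98% of well expressed genes. For scale, the 2 untreated libraries of 4 h and 1 h, set against each other across separately scaled tables, had 1st and 99th percentiles of -1.01 and 0.81 among well expressed genes.

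Few genes passed 2-fold. They numbered 10 higher with IL-4 (0.0953% of genes compared) and 2 lower (0.0191%). At 1.5-fold the counts over all genes were 44 higher (0.419%) and 19 lower (0.181%), and at 1.2-fold 236 higher (2.25%) and 279 lower (2.66%). Among well expressed genes, 4 were higher (0.0707%) and 1 lower (0.0177%) at 2-fold, 18 were higher (0.318%) and 3 lower (0.0531%) at 1.5-fold, and 53 were higher (0.937%) and 40 lower (0.707%) at 1.2-fold. Centring all changes on the median of all genes turned the last split into 64 higher and 29 lower.

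**Figure D1:**
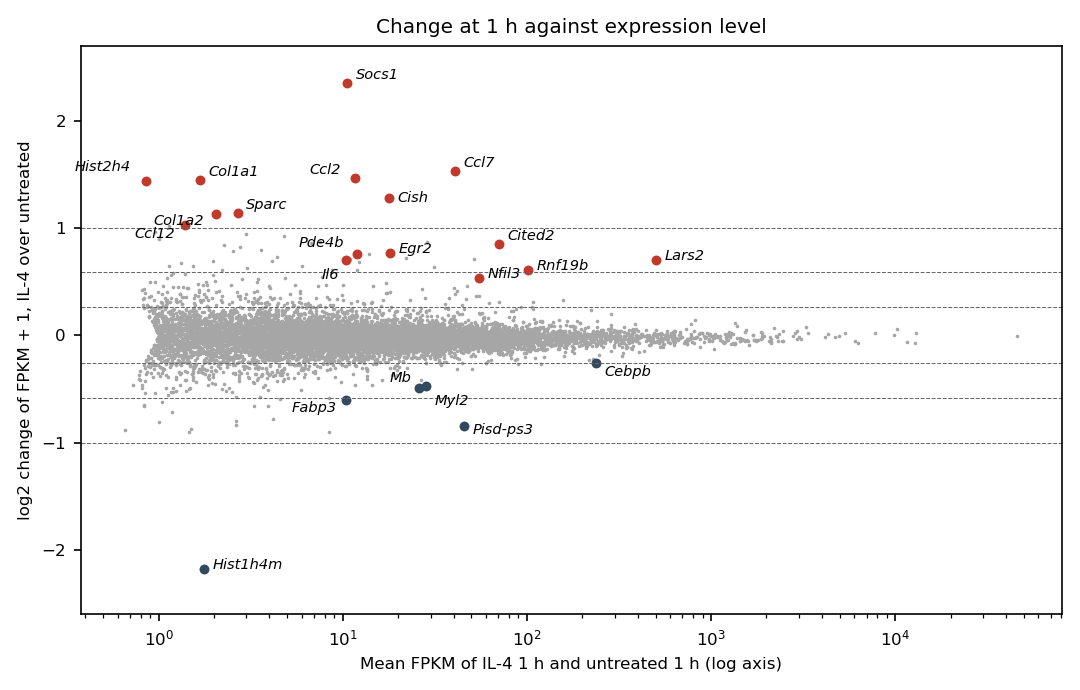
Log2 change of FPKM + 1, IL-4 over untreated at 1 h (y axis), against the mean FPKM of both libraries on a log axis (x axis), 1 grey point per gene, with named genes in red where higher and blue where lower with IL-4. Dashed lines mark 1.2-fold, 1.5-fold and 2-fold. Socs1, Ccl7, Ccl2 and Cish stand above 2-fold among well expressed genes, and Rps27, at -4.88, lies below the range drawn.

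The SOCS family genes Socs1 and Cish were higher with IL-4. Socs1, whose product inhibits JAK kinases, had 18.4 FPKM with IL-4 against 2.80 FPKM in untreated cells, a log2 change of 2.35. On the scale of FPKM + 1 this was the largest increase of any gene compared. The order depends on the added 1, as the plain log2 ratio was 2.71 for Socs1 and 2.73 for the low gene Col1a1. Cish, which encodes a SOCS protein also known as a target of STAT5, had 25.7 FPKM with IL-4 and 10.0 FPKM untreated, a change of 1.28. At about 1363 reads with IL-4 and 545 untreated, the counting interval of the plain log2 ratio of Cish was 1.21 to 1.505. Among the other members of this family, Socs3 had 3.92 FPKM with IL-4 and 2.71 FPKM untreated (0.41). Socs2, a feedback gene of STAT5, had 60.2 FPKM with IL-4 and 59.2 FPKM untreated, and Socs4, Socs5, Socs6 and Socs7 had changes of 0.02 to 0.15. The PIM kinases, which promote survival downstream of JAK-STAT signals, differed in size of change. Pim3 had 17.7 FPKM with IL-4 and 10.1 FPKM untreated (0.76), Pim2 had 4.29 FPKM with IL-4 and 3.38 FPKM untreated (0.27), and Pim1 had 73.6 FPKM with IL-4 and 68.5 FPKM untreated (0.10). Of the 22 measured members of the list of SOCS family and JAK-STAT feedback genes, 5 passed 1.2-fold, all of them higher (22.7%), with a list median of 0.05 beside -0.02 for all genes. Over all genes compared, 2.25% were at least 1.2-fold higher and 2.66% lower, and the list counts that follow are to be read against these shares. The lists were chosen with earlier results of these data known, so their counts are descriptions only. A gene that reached 1 FPKM with IL-4 only entered through the library where it was higher, as did 135 of all 10494 genes. In the lists of NF-kB targets, immediate early genes and IL-4 and STAT6 response genes, this held for 1 member each.

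Monocyte chemoattractant genes also passed 2-fold. Ccl7 had 60.7 FPKM with IL-4 and 20.4 FPKM untreated (1.53), and Ccl2 had 17.6 FPKM with IL-4 and 5.75 FPKM untreated (1.46). Both encode chemokines that draw monocytes through the receptor CCR2. They lie close together on mm9 chromosome 11, Ccl2 (NM_011333) at 81849079-81850954 and Ccl7 (NM_013654) at 81859214-81861025. Ccl12, a further member of this family, was low, at 2.20 FPKM with IL-4 and 0.572 FPKM untreated (1.03), which is about 22 reads with IL-4 and 6 untreated. The macrophage inflammatory protein gene Ccl4 had 176 FPKM with IL-4 and 140.2 FPKM untreated (0.33), and the neutrophil chemokine gene Cxcl3 had 59.7 FPKM with IL-4 and 46.1 FPKM untreated (0.36). Ccl3 and Ccl6 had changes of 0.05 and 0.02, and Ccl5 was lower, at 13.2 FPKM with IL-4 and 16.1 FPKM untreated (-0.26). In all, 6 of 18 measured chemokines were at least 1.2-fold higher (33.3%, against 2.25% of all genes) and 1 was lower (5.56%, against 2.66%), with a median of 0.07. Of the 18, 2 reached 1 FPKM with IL-4 only, Ccl12 among them, and so entered through the library where they are higher.

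Ccl2 and Ccl7 are also made by fibroblasts, and matrix genes moved in the same direction at low levels. Col1a1, a chain of type I collagen, had 2.93 FPKM with IL-4 and 0.443 FPKM untreated (1.45). Col1a2, the partner chain, had 3.20 FPKM with IL-4 and 0.921 FPKM untreated (1.13), and the matrix protein gene Sparc had 4.08 FPKM with IL-4 and 1.31 FPKM untreated (1.14). Without Ccl2 and Ccl7, 8 of 16 measured stromal and matrix markers were at least 1.2-fold higher (against 2.25% of all genes) and none was lower, with a median of 0.27. In the lowest bin of mean FPKM the 95th percentile was 0.33, past 1.2-fold, so the share of all genes understates the share at that level. Of the 18 markers with Ccl2 and Ccl7, 4 reached 1 FPKM with IL-4 only, Col1a1 and Col1a2 among them. The filter admitted these 4 through the library where they are higher, so their direction is no separate result. Spread is wide at these levels, with a 99th percentile of 0.57 in the lowest bin and 0.52 in the next. The changes of Col1a1, Col1a2 and Sparc lay above these percentiles. Reads with IL-4 and untreated were about 323 and 50 for Col1a1, 318 and 94 for Col1a2, and 175 and 58 for Sparc. Counting intervals of their plain log2 ratios were 2.29 to 3.19, 1.46 to 2.14 and 1.19 to 2.08, which cover counting error only. The 8 higher markers were Col1a1, Sparc, Col1a2, Timp1, Col3a1, Bgn, Igfbp7 and Fn1. The other 8, among them Vim, Timp2, Acta2, Pdgfrb and Dcn, had changes between -0.18 and 0.08. The summed level of the 16 markers, most of it Vim, was 816 FPKM with IL-4 and 848 FPKM untreated. The part of stromal cells in the Ccl2 and Ccl7 values at 1 h was not tested. With IL-33 at 1 h, set against the same untreated library, Col1a1, Col1a2 and Sparc had changes of 0.87, 0.83 and 0.59. For these matrix genes, a difference particular to IL-4 and one of the shared untreated library cannot be told apart. At 4 h, Col1a1, Col1a2 and Sparc were below 1 FPKM in both libraries, a level at which the scale allows only small changes. Their changes there were 0.15, 0.20 and 0.03, and those of Ccl7 and Ccl2 were 2.23 and 1.74.

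The remaining genes past 2-fold rest on uncertain values. Hist2h4, a histone H4 gene with near-identical copies, had 1.70 FPKM with IL-4 and was listed at 0 untreated. Hist1h4m, another H4 gene, had a listed value of 0 with IL-4 and 3.54 FPKM untreated. 1700120K04Rik, a predicted symbol, had 1.87 FPKM with IL-4 and 0.420 FPKM untreated (1.01). Rps27, a gene of the small ribosomal subunit, had 4.94 FPKM with IL-4 and 174 FPKM untreated (-4.88). This difference lay in 1 of its 2 transcripts, NM_027015, which had a listed value of 0 with IL-4 and 168 FPKM untreated, while NR_033727 had 4.94 FPKM with IL-4 and 5.51 FPKM untreated. An exact 0 in these files can be a failed estimate, and ribosomal protein genes have many processed copies that can share reads.

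Among the 15 well expressed genes with the largest increases below 2-fold, Cited2, Egr2, Nfil3 and Csrnp1 encode nuclear proteins. Cited2, a transcriptional cofactor that binds CBP and p300, had 90.9 FPKM with IL-4 and 49.99 FPKM untreated (0.85), with a counting interval of 0.78 to 0.94 for the plain log2 ratio. Egr2, a zinc finger transcription factor and a known STAT6 target of macrophages, had 23.0 FPKM with IL-4 and 13.1 FPKM untreated (0.76). Nfil3, a basic leucine zipper factor known in mouse B cells for its part in IgE class switching, had 65.6 FPKM with IL-4 and 44.9 FPKM untreated (0.54). Csrnp1, a nuclear protein of the immediate early class, had 14.7 FPKM with IL-4 and 9.30 FPKM untreated (0.61).

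The others of these 15 have varied roles. Pde4b, a phosphodiesterase that degrades cyclic AMP, had 15.3 FPKM with IL-4 and 8.63 FPKM untreated (0.76). Pim3 had a change of 0.76 and the polo-like kinase gene Plk2 one of 0.68, at 15.4 FPKM with IL-4 and 9.22 FPKM untreated. Cass4, a scaffold of the Cas family in adhesion signalling, had 38.3 FPKM with IL-4 and 24.3 FPKM untreated (0.63), and Sdc4, a heparan sulphate proteoglycan, had 11.9 FPKM with IL-4 and 8.30 FPKM untreated (0.47). Zfp36l1, which promotes decay of AU-rich mRNA, had 13.9 FPKM with IL-4 and 8.08 FPKM untreated (0.71). The ubiquitin ligase gene Rnf19b had 123 FPKM with IL-4 and 80.4 FPKM untreated (0.61), about 5797 reads with IL-4 and 3877 untreated, with a counting interval of 0.56 to 0.68 for the plain log2 ratio. The mitochondrial genes Lars2, a leucyl-tRNA synthetase, and Ndufs5, a subunit of complex I, had changes of 0.70 and 0.71. Lars2 had 624 FPKM with IL-4 and 384 FPKM untreated, the highest level among these 15, and its change was -0.20 with the untreated library of 4 h as control. Pisd-ps1 (0.87) and Pisd-ps3 (-0.84) are pseudogene copies that may share reads, and their opposite changes are uncertain.

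**Figure D2:**
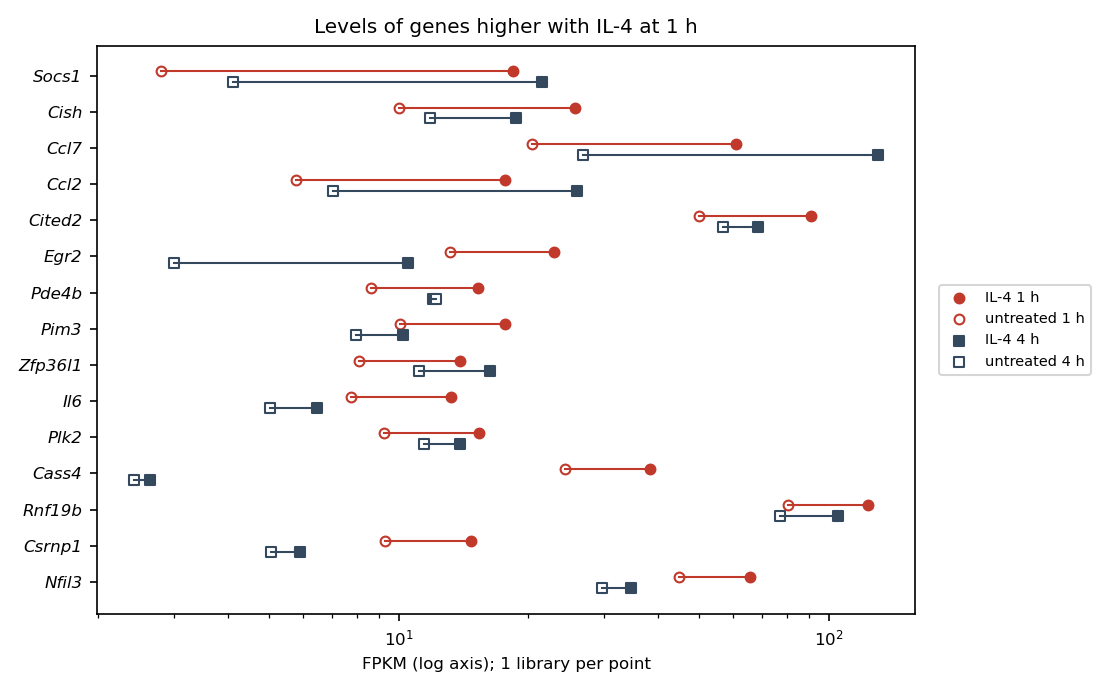
FPKM on a log axis of 15 named genes that were higher with IL-4 at 1 h, 1 library per point. Red circles give IL-4 1 h (filled) and untreated 1 h (open), and blue squares give IL-4 4 h (filled) and untreated 4 h (open), from separately scaled tables. Socs1, Ccl7, Ccl2 and Egr2 are separated at both times, whereas the 4 h values of Pde4b, at 11.99 FPKM with IL-4 and 12.2 FPKM untreated, coincide.

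Inflammatory genes known as targets of NF-kB, the pathway of innate activation, also held members with increases below 2-fold. Il6 had 13.2 FPKM with IL-4 and 7.73 FPKM untreated (0.70), and Ptgs2, the inducible cyclooxygenase, had 7.53 FPKM with IL-4 and 4.44 FPKM untreated (0.65). The IL-1 genes were higher as well, with Il1a at 47.5 FPKM with IL-4 and 35.5 FPKM untreated (0.41) and Il1b at 42.5 FPKM with IL-4 and 33.3 FPKM untreated (0.34). Of 41 measured NF-kB targets, 13 were at least 1.2-fold higher (31.7%, against 2.25% of all genes), 3 were lower (7.32%, against 2.66%) and 25 were neither, and the median was 0.03. The lower ones were Relb, a subunit of NF-kB (-0.28), Tnf, at 7.36 FPKM with IL-4 and 9.09 FPKM untreated (-0.27), and Ccl5. No member of the list passed 2-fold. The survival genes Bcl2a1a, Bcl2a1b and Bcl2a1d, also of this list, had changes of 0.38, 0.27 and 0.33, but these copies may share reads.

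Immediate early genes, which cells transcribe within minutes of a stimulus, also held members past 1.2-fold. Of 49 measured, 10 were at least 1.2-fold higher (20.4%, against 2.25% of all genes), 2 were lower (4.08%, against 2.66%) and 37 were neither, with a median of 0.01. Besides Egr2, Zfp36l1, Plk2 and Csrnp1, they included Myc, at 3.90 FPKM with IL-4 and 2.18 FPKM untreated (0.62), and the phosphatase gene Dusp4, at 3.54 FPKM with IL-4 and 2.15 FPKM untreated (0.53). Id3, an inhibitor of basic helix-loop-helix factors, was lower, at 1.62 FPKM with IL-4 and 3.67 FPKM untreated (-0.83). Its relative Id2 did not pass 1.2-fold, at 213 FPKM with IL-4 and 247 FPKM untreated (-0.22). Outside this list, Hbegf, an EGF family growth factor, had 1.59 FPKM with IL-4 and 0.328 FPKM untreated (0.96). Several genes, such as Egr2, Ier3 and Atf3, stand in more than 1 list.

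Known IL-4 and STAT6 response genes lay mostly above 0 at 1 h. Of 42 listed genes 31 were measured and 9 were at least 1.2-fold higher (29.0%, against 2.25% of all genes). None of the 31 was lower by 1.2-fold, 25 lay above 0 (40.0% of all genes did), and the median was 0.13. The 11 listed genes not measured included Ccl17, at 0.157 FPKM with IL-4 and 0.765 FPKM untreated, and Ccl24, at 0.986 FPKM with IL-4 and 0.393 FPKM untreated. Mgl2 was also among them, at 0.704 FPKM with IL-4 and 0.711 FPKM untreated. The 9 higher genes were Socs1, Ccl7, Ccl2, Cish, Egr2, Myc, Arg1, Clec7a and Pim2. As the list was chosen with earlier results of these data known, its excess over all genes is a description and not a test. Arg1, the arginase of alternatively activated macrophages, was low, at 2.18 FPKM with IL-4 and 1.30 FPKM untreated (0.46). Clec7a, which encodes the beta-glucan receptor dectin-1, had 46.5 FPKM with IL-4 and 33.9 FPKM untreated (0.44). Retnla, a secreted protein of type 2 inflammation, had 12.2 FPKM with IL-4 and 10.7 FPKM untreated (0.17), and Mrc1, the mannose receptor, had 5.74 FPKM with IL-4 and 6.19 FPKM untreated (-0.09). At 4 h these genes had changes of 2.35 (Arg1), 0.78 (Clec7a), 2.20 (Retnla) and 1.39 (Mrc1), and the list median was 0.64.

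The receptor and its signalling chain kept their levels within 1.2-fold. Il4ra had 8.17 FPKM with IL-4 and 8.11 FPKM untreated, Il2rg had 57.3 FPKM with IL-4 and 58.6 FPKM untreated, and Stat6 had 119 FPKM with IL-4 and 125 FPKM untreated. Changes of all 26 measured members of this list lay between -0.16 and 0.18, with a median of -0.03. Il4 itself had 81.2 FPKM with IL-4 and 80.3 FPKM untreated, Il13 had 2.48 FPKM with IL-4 and 2.13 FPKM untreated, and Il5 was listed at 0 in both libraries. Il1rl1, the IL-33 receptor chain, had 61.6 FPKM with IL-4 and 55.8 FPKM untreated (0.14).

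**Figure D3:**
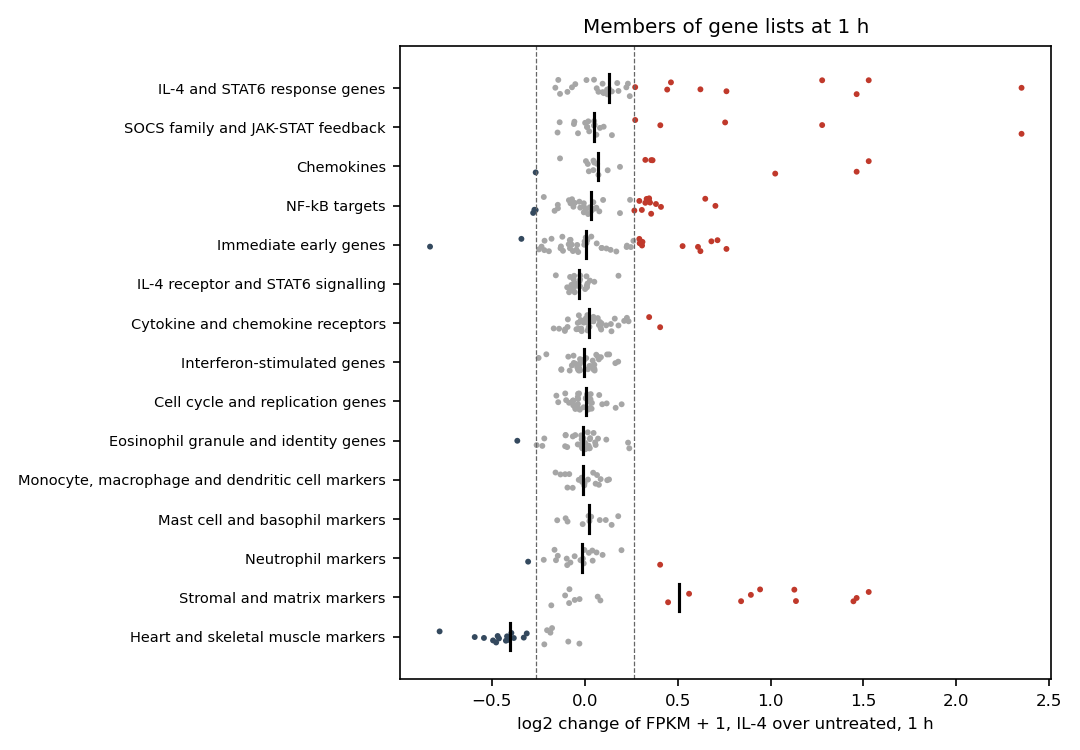
Log2 change of FPKM + 1, IL-4 over untreated at 1 h (x axis), for each reported member of 15 gene lists (rows), with a black bar at the list median and dashed lines at 1.2-fold. Points are red where at least 1.2-fold higher, blue where at least 1.2-fold lower and grey between. Medians were 0.13 for IL-4 and STAT6 response genes and -0.40 for heart and skeletal muscle markers.

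Among the 914 genes with a mean of at least 100 FPKM, where reads are most plentiful, shifts were small. Besides Lars2, Rnf19b and Ccl4, the largest increases were those of Arg2, the mitochondrial arginase, at 119.5 FPKM with IL-4 and 96.0 FPKM untreated (0.31), and of Plk3, a polo-like kinase, at 116 FPKM with IL-4 and 96.9 FPKM untreated (0.26). Atp6v0c, a subunit of the vacuolar proton pump (0.24), Bhlhe40, a helix-loop-helix repressor (0.24), and Cd300lb, an activating receptor of myeloid cells (0.19), followed. The largest decreases were those of Scand1 (-0.27) and Cebpb, a granulocyte and macrophage transcription factor, at 216 FPKM with IL-4 and 259 FPKM untreated (-0.26). With the untreated library of 4 h as control, the change of Cebpb was 1.21. Id2, Zfp36l2, a relative of Zfp36l1, Tusc1, Jund, an AP-1 subunit, and Ndufa3, of complex I, had changes of -0.22 to -0.19. Atp6v0c-ps2 (-0.23) is a pseudogene copy of Atp6v0c, and both values are uncertain. The lineage factor Cebpa, below this level, had 9.78 FPKM with IL-4 and 12.9 FPKM untreated (-0.36).

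Genes of striated muscle made up 8 of the 15 largest decreases below 2-fold among well expressed genes, predicted symbols passed over. Mb (myoglobin) had 21.4 FPKM with IL-4 and 30.5 FPKM untreated (-0.49), and the heart myosin light chain gene Myl2 had 23.5 FPKM with IL-4 and 33.1 FPKM untreated (-0.48). Of the 40 well expressed genes that were at least 1.2-fold lower, 6 stood in the list of heart and skeletal muscle markers, namely Mb, Myl2, Myl3, Actc1, Myh6 and Tnnt2. With IL-33 at 1 h, set against the same untreated library, these 6 genes were also lower, with changes of -0.45 (Mb) to -0.29 (Actc1). A difference particular to IL-4 and one of the shared untreated library cannot be told apart here. The change of Myh6 with IL-4 was -0.38, and -0.17 with its most abundant transcript alone. Fabp3, the fatty acid binding protein of heart, at 8.03 FPKM with IL-4 and 12.7 FPKM untreated (-0.60), and the muscle enzyme gene Pgam2 (-0.37) were outside the list. Of the 20 measured muscle markers, 14 were at least 1.2-fold lower (70.0%, against 2.66% of all genes), none was higher and none lay above 0, with a median of -0.40. Their summed level was 283 FPKM with IL-4 and 342 FPKM untreated. At 4 h, Mb and Myl3 were listed at 0 in both libraries, and Myl2 had 0.602 FPKM with IL-4 and 0.150 FPKM untreated. Actc1, Myh6, Tnnt2 and Pln were also below 1 FPKM in both libraries at 4 h. The summed level of the 20 markers at 4 h was 115 FPKM with IL-4 and 111 FPKM untreated, most of it from other members of the list. Outside the list, Pgam2 had 16.3 FPKM with IL-4 and 20.5 FPKM untreated. In bulk RNA, fewer cells of a type and less RNA per cell cannot be told apart, and the source of the muscle RNA in the 1 h libraries was not tested.

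**Figure D4:**
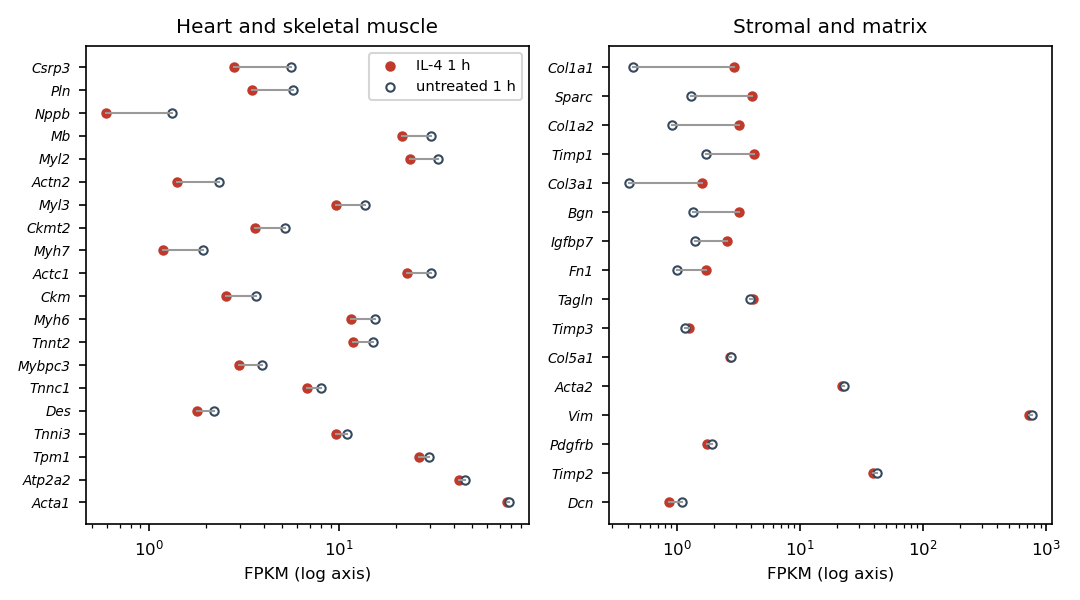
FPKM on log axes of the 20 measured heart and skeletal muscle markers (left) and of the 16 measured stromal and matrix markers other than Ccl2 and Ccl7 (right), with IL-4 1 h as filled red points and untreated 1 h as open blue points, 1 library each. All 20 muscle markers are lower with IL-4, and 8 of the 16 stromal markers are at least 1.2-fold higher.

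The other decreases among the 15 largest had no common list. The SOCS box protein gene Spsb2 had 11.5 FPKM with IL-4 and 15.5 FPKM untreated (-0.40), and Prdx2, a peroxiredoxin that removes peroxides, had 16.01 FPKM with IL-4 and 20.9 FPKM untreated (-0.37). Wdr33, of the mRNA polyadenylation complex, Lage3 and Arl1, a GTPase of the Golgi, had changes of -0.33, -0.33 and -0.32. With only the most abundant transcript of each gene, the change of Wdr33 was -0.03. Outside these 15, the pro-apoptotic gene Bbc3 had 16.1 FPKM with IL-4 and 20.1 FPKM untreated (-0.30).

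Eosinophil marker genes had nearly equal levels in both libraries. Prg2, the major basic protein, had 45976 FPKM with IL-4 and 46216 FPKM untreated, and Epx, eosinophil peroxidase, had 2064 FPKM with IL-4 and 2158 FPKM untreated. Ccr3, Siglec5 (Siglec-F), Il5ra and the ribonuclease genes Ear1, Ear2 and Ear6 had changes between -0.04 and 0.003. Of 36 measured eosinophil genes none was higher and 1, Cebpa, was lower at 1.2-fold (2.78%, against 2.66% of all genes). Of 25 granulocyte lineage transcription factors, Cebpa again was the only one past 1.2-fold. No member passed 1.2-fold in either direction among 38 interferon-stimulated genes, 40 cell cycle genes, 28 cholesterol genes and 26 glycolysis and hypoxia genes. Ribosomal protein genes (83 measured) and respiratory chain genes (76 measured) had medians of -0.03 each. Of the ribosomal genes 1 was higher and 2 were lower, and of the respiratory chain genes 3 were higher and 1 was lower.

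Shares past 1.2-fold in the remaining lists are given beside those of all genes, 2.25% higher and 2.66% lower. They reached 22.7% higher and 9.09% lower among cytokine and growth factor genes, and some other lists were near the shares of all genes. Of 22 cytokine and growth factor genes, 5 were higher (22.7%), namely Hbegf, Il6, Il1a, Il1b and Lif (0.27). Hbegf reached 1 FPKM with IL-4 only and so entered through the library where it is higher. In that list 2 were lower (9.09%), Tnf and Pdgfb, a platelet-derived growth factor chain, at 1.92 FPKM with IL-4 and 3.36 FPKM untreated (-0.58). Of 31 apoptosis and survival genes, 5 were higher (16.1%), the 3 Bcl2a1 copies, Pim2 and Pim3, and 1 was lower (3.23%), Bbc3. Of 44 cytokine and chemokine receptors, 2 were higher (4.55%), Cxcr2 (0.41) and Il6st, the shared receptor chain of the IL-6 family (0.35). Of 44 adhesion and activation genes, 2 were higher (4.55%), Siglece, an inhibitory receptor gene (0.29), and the activation marker gene Cd69, at 5.36 FPKM with IL-4 and 2.95 FPKM untreated (0.69). Of 24 eicosanoid genes, Ptgs2 and the prostaglandin receptor gene Ptger3 (0.27) were higher (8.33%). Arg1 and Arg2 were the 2 higher genes of 16 in arginine and polyamine metabolism (12.5%). Of 21 genes of MHC class II and costimulation, Cd83 was higher (0.35) and H2-DMb2 lower (-0.35), 4.76% each way. Of 26 FoxO and PI3K-AKT feedback genes, Cited2 was higher (3.85%). Among 25 unfolded protein and heat shock genes, Atf3 was higher (0.30), which is 4.00%, and Hspb1 (-0.52) and Hspe1 (-0.31) were lower, which is 8.00%. Of 55 histone genes, whose copies may share reads, 7 were higher (12.7%) and 4 lower (7.27%). Of the 55, 4 reached 1 FPKM with IL-4 only, Hist2h4 and Hist1h3e among them.

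Markers of other blood cells were present in both libraries. None of 11 mast cell and basophil markers passed 1.2-fold (median 0.03), and their summed level was 481 FPKM with IL-4 and 471 FPKM untreated. Among 20 neutrophil markers the receptor gene Cxcr2 was higher, at 20.8 FPKM with IL-4 and 15.4 FPKM untreated (0.41), and Fcnb lower (-0.30), with summed levels of 7827 FPKM with IL-4 and 7745 FPKM untreated. The summed level of the 20 monocyte, macrophage and dendritic cell markers reported here was 4629 FPKM with IL-4 and 4614 FPKM untreated. Csf1r, the receptor for macrophage colony-stimulating factor, had 90.1 FPKM with IL-4 and 91.2 FPKM untreated. Of 10 lymphoid markers Cd3g was lower (-0.30), of 10 erythroid and megakaryocyte markers Hbb-b2 was lower (-0.55), and none of 3 endothelial markers passed 1.2-fold.

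The same genes were read at 4 h in libraries that share none with the 1 h comparison. Of the 18 well expressed genes at least 1.5-fold higher at 1 h, 16 had a change above 0 at 4 h (88.9%, against 56.7% of well expressed genes), and their median at 4 h was 0.32. Only Socs1, Ccl7, Ccl2 and Cish passed 1.5-fold and 10 FPKM at both times, which is 22.2% of the 1 h list and 16.7% of the 24 genes of the 4 h list (0.398% of well expressed genes). Of the 53 genes at least 1.2-fold higher at 1 h, 39 had a change above 0 at 4 h (73.6%) and 16 passed 1.2-fold again (30.2% of the 1 h list and 13.6% of the 118 genes of the 4 h list, 1.96% of well expressed genes). Of the 40 genes at least 1.2-fold lower at 1 h, 15 had a change below 0 at 4 h (37.5%, against 43.2% of well expressed genes), and only Pgam2 passed 1.2-fold again, where 0.696% of well expressed genes were at least that much lower at 4 h. Among these 40, Mb and Myl3 were listed at 0 in both 4 h libraries, and Myl2, Actc1, Myh6 and Tnnt2 were below 1 FPKM in both. These muscle genes had little or no room to be lower again, so the 2 shares are not like for like.

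Individual genes took different courses over the pair of times. Socs1 had 21.5 FPKM with IL-4 and 4.11 FPKM untreated at 4 h (2.14), close to its change of 2.35 at 1 h, and the change of Cish was 0.62 at 4 h and 1.28 at 1 h. The changes of Egr2 were 1.52 at 4 h and 0.76 at 1 h, those of Sdc4 1.398 at 4 h and 0.47 at 1 h, and those of Clec7a 0.78 at 4 h and 0.44 at 1 h. For Cited2 (0.26), Plk2 (0.26), Nfil3 (0.22), Csrnp1 (0.19), Cass4 (0.09), Ndufs5 (0.07) and Pde4b (-0.02), the 4 h changes were smaller than at 1 h. Among the inflammatory genes, Il6 had a change of 0.31 at 4 h, and Ptgs2, Il1a, Il1b and Cxcl3 had changes of 0.09, -0.07, -0.23 and -0.03. With 1 library at each time, these differences between times were not tested.

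**Figure D5:**
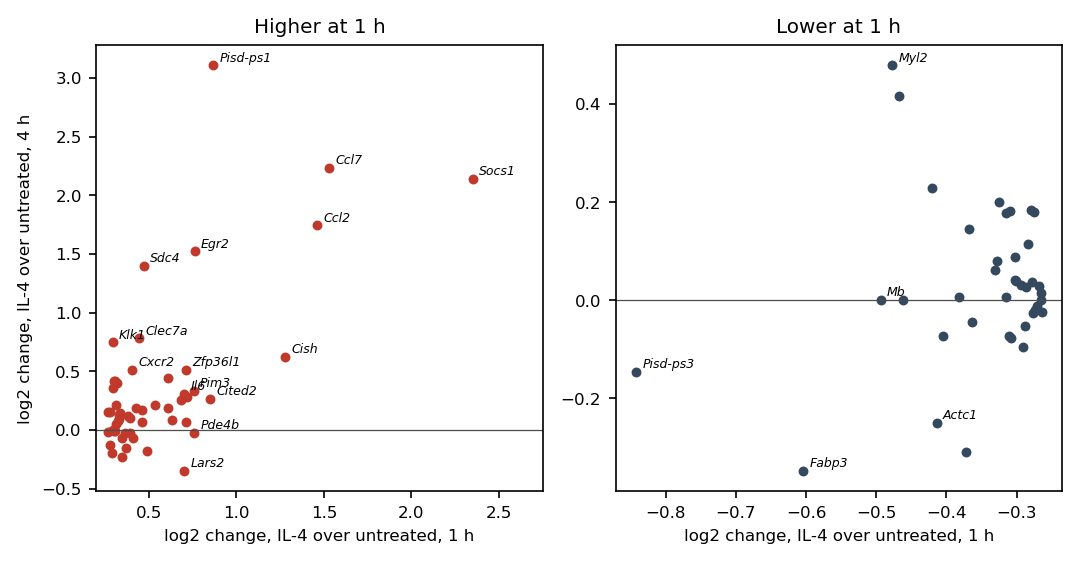
Log2 change of FPKM + 1, IL-4 over untreated, at 4 h (y axis) against 1 h (x axis) for the well expressed genes at least 1.2-fold higher at 1 h (left, 53 genes) and lower at 1 h (right, 40 genes, with Rps27 outside the range drawn). In the left panel 39 genes lie above 0 at 4 h, and in the right panel 15 of 40 lie below 0. Axis ranges differ between the panels.

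IL-33 at 1 h was measured against the same untreated library, so its changes share that control and are given side by side only. Socs1 had a log2 change of 2.35 with IL-4 and 0.60 with IL-33, and Cited2 had 0.85 with IL-4 and -0.27 with IL-33. Nfil3 had 0.54 with IL-4 and -0.36 with IL-33, and Gpr183, a receptor for oxysterols, had 0.46 with IL-4 and -0.45 with IL-33. Il6 had 0.70 with IL-4 and 4.71 with IL-33, and Pde4b had 0.76 with IL-4 and 3.19 with IL-33. Ptgs2 had 0.65 with IL-4 and 3.32 with IL-33, and Cish had 1.28 with IL-4 and 3.29 with IL-33. Ccl7 had 1.53 with IL-4 and 1.01 with IL-33, and Ccl2 had 1.46 with IL-4 and 0.97 with IL-33. Col1a1 had 1.45 with IL-4 and 0.87 with IL-33, and Mb had -0.49 with IL-4 and -0.45 with IL-33.

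Small RNA genes, kept apart above, varied widely. Of 134 compared, 40 were at least 2-fold higher (29.9%) and 36 lower (26.9%), and 59 of these 76 were listed at 0 in 1 of the libraries. In the authors' deposited table of selected genes, 648 were marked for IL-4 at 1 h, 246 with a log2 fold change above 0 and 402 below 0. Of these 648 marks in the authors' deposited table, 533 (82.3%) were under 1.2-fold, with a median size of 0.10, and 6 passed 2-fold. Such marks compare the reads of 2 libraries and not the conditions.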

How the data were processed

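RNA-seq of 6 mouse eosinophil libraries, 1 per group, was analysed, and 2 libraries, IL-4 1 h and untreated 1 h, were compared. Libraries were made from total RNA for single reads, per the labels' protocols. The submitters' processing notes name TopHat 1.4.1, Cuffdiff 1.2.1 and build mm9, and the release of the annotation is not given in the sources used here. FPKM of 28702 RefSeq transcripts were deposited in 4 separately scaled tables, which pair a treated library with its control of equal time. The log2 fold changes deposited by the authors were used only for the counts credited to them, and the test score, p-value and q-value columns in the deposited tables, which compare 2 libraries, were not used.

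The design had assumed values per gene. Transcripts were summed per symbol (3869 genes had several), and where a gene had several loci (232 genes), the one with most FPKM was used. Change was log2 of FPKM + 1, IL-4 over untreated, for genes of at least 1 FPKM in either library. Small RNA genes were set apart by symbol and by RefSeq biotype. Genes were counted past 2-fold, 1.5-fold and 1.2-fold, the last 2 mainly for well expressed genes of mean FPKM of at least 10. No test was possible with 1 library per group. Total counts are not in the tables, so depth was read from the steps of low values: 1 read of a 1 kb transcript was worth about 0.0538 FPKM with IL-4 and 0.0525 FPKM untreated, a relative depth of 0.975. At 10 FPKM, 1 kb thus held about 186 reads with IL-4 and 191 untreated. Read numbers in the text are estimates from these steps and GENCODE M21 transcript lengths, given only for genes with 1 transcript that fits its locus, with exact 95% binomial (Clopper-Pearson) intervals of the plain ratio, which cover counting error only.

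Named genes were those past 2-fold, the 15 largest rises and falls under 2-fold among well expressed genes, the 8 largest each way at a mean of at least 100 FPKM, a fixed set (Socs1, Cish, Ccl2, Ccl7, Il4ra, Il4, Il13, Il5, Il6, Il1rl1 and eosinophil markers) and up to 4 members per list. Predicted symbols were passed over; 1700120K04Rik and further list members and Gpr183 were named after their values were seen. The members and the 32 gene lists were chosen with earlier results of these data known. One marker gene of the monocyte, macrophage and dendritic cell list was left out after its values were seen and is not reported here. The formula for change was run on untreated values multiplied by known folds, which checks its arithmetic and no other step. Alternatives were another pseudocount, other filters, the untreated library of 4 h, median centring, the top transcript per gene and all loci summed. Python 3.11.15, pandas 2.3.3, numpy 2.4.6, scipy 1.17.1 and matplotlib 3.10.9 were used.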

Additional observations from a re-analysis of the deposited data

Results flagged for a closer look

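In 5 genes the change with IL-4 passed 1.2-fold at both times in opposite directions, with 1 library per group, so that the difference between the times was not tested. Lars2 had a log2 change of -0.35 at 4 h (563 FPKM with IL-4 and 717 FPKM untreated) and 0.70 at 1 h. Myl2 had 0.48 at 4 h, at under 1 FPKM in both libraries, and -0.48 at 1 h. H2-DMb2, a chain of an MHC class II chaperone, had 0.36 at 4 h (5.24 FPKM with IL-4 and 3.86 FPKM untreated) and -0.35 at 1 h (2.34 FPKM with IL-4 and 3.26 FPKM untreated). Rpl26 had -3.80 at 4 h, with a listed value of 0 under IL-4 and 12.9 FPKM untreated, and 0.80 at 1 h. Hist1h3e had -0.42 at 4 h and 0.43 at 1 h. Rpl26 and Hist1h3e have copies that may share reads and are uncertain.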

How the results depend on the processing

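No replicate could be left out, and no paired analysis was possible because each group has 1 library. With a pseudocount of 0.1, genes past 2-fold numbered 23 higher and 17 lower, and with at least 5 FPKM required, 4 and 1. With the top transcript per gene they numbered 32 and 39, with 15 well expressed genes lower at 1.5-fold and 102 higher and 104 lower at 1.2-fold. Without genes that have a transcript listed at 0 in 1 library, 0 were lower at 2-fold. With well expressed set at a mean of 5 FPKM, 90 were higher and 79 lower at 1.2-fold, and at 20 FPKM 27 and 13, with 8 higher at 1.5-fold. Against the untreated library of 4 h, which adds the difference in time and of table, 136 were higher and 73 lower at 2-fold, 192 and 284 at 1.5-fold, and 631 and 1425 at 1.2-fold, and the median of the IL-4 and STAT6 list was 0.22. Against it these log2 changes of at least 1.2-fold turned sign: Lars2 -0.20, Fabp3 2.05, Mb 4.48, Myl2 4.41, Myl3 3.41, Actc1 3.70, Myh6 3.65, Tnnt2 3.68, Csrp3 0.78, Pln 2.12, Arl1 0.015, Cxcr2 -0.10, Il6st -0.13, Ptger3 -0.035, Rpl26 -1.25, Ndufc2 -0.072, Hist1h3e -0.19 and Cd3g 0.084. Of smaller ones, among others, Cebpb turned to 1.21, Jund to 0.72, Tusc1 to 0.13, Ndufa3 to 0.060 and Il1rl1 to -0.13. Cox6b2 turned to 0.083 with the top transcript. The other counts stayed within 1.5 times of those reported. Of the named genes' values, 3 no longer passed their fold after median centring, 3 with the top transcript and 14 against the untreated library of 4 h. Low values limit most: 1 kb at 1 FPKM is worth about 19 reads, and the cause of each shift was not tested.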
